A study of Drosophila melanogaster with 10 samples.

Results

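The genes described here encode the cytosolic ribosomal proteins of Drosophila melanogaster. They were taken as every row of the deposited expression table whose gene name begins with RpL, for the large subunit, or RpS, for the small subunit. The rule found 92 of the 14310 genes in the table, 54 with large-subunit names and 38 with small-subunit names. Of these, 84 had a mean of at least 1 TPM over the libraries and were tested, 51 large and 33 small. The other 8 are duplicate or variant copies, RpL10Aa, RpL22-like, RpL37b, RpS5b, RpS10a, RpS19b, RpS28a and RpS28-like, and are described by their values alone.

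Expression was measured by RNA sequencing of midguts from adult males dissected on day 7 after eclosion and fed only yeast, in 10 libraries. The 5 libraries labelled dHNF4 RNAi carried mex-GAL4, a driver active in enterocytes, the absorptive cells of the gut, together with the inducible hairpin UAS-dHNF4 RNAi NIG9310-R2, both heterozygous, on a w background. Hnf4, the target, encodes a nuclear receptor related to mammalian HNF4. The 5 control libraries carried the same hairpin, also heterozygous, in w1118 males without a driver, so effects of the driver and of the knockdown cannot be told apart here. RNA came from pools of 20 whole midguts, which hold stem cells, hormone-producing cells and muscle beside enterocytes. In such bulk RNA, a change in the proportion of a cell type and a change in RNA per cell cannot be told apart.

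The ribosome is built from a large and a small subunit, each an RNA scaffold dressed with proteins, most of them in a single copy. Growing cells spend much of their transcription on these proteins, and in flies the loss of a copy of many of these genes slows growth, the Minute phenotype. Several ribosomal protein genes of the fly have a second copy, and some second copies are known mainly from the germ line. In animals the promoters and the 5′ ends of these mRNAs carry shared pyrimidine-rich elements through which they are regulated together.

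Values are in TPM, a length-corrected share of all transcripts in a library, so abundant transcripts that fall raise the TPM of all others. The median TPM of tested genes was 18.6 to 19.3 in dHNF4 RNAi libraries and 11.9 to 14.4 in controls. The 20 most abundant genes, mostly digestive enzymes but including RpL41, took 17.8% ± 0.342 of dHNF4 RNAi libraries and 24.9% ± 2.01 of control libraries (SD, n = 5 each). For that reason most differences are also given after median-of-ratios scaling, which sets the typical gene to no change. Differences given in TPM alone would also shift with the scaling. The target gene Hnf4 was not lower in TPM, at 45.6 ± 2.38 in libraries labelled dHNF4 RNAi and 38.8 ± 4.92 in controls (log2 fold change 0.24, limma adjusted p = 0.0199), and its sign turned after median-of-ratios scaling (-0.35). Midgut digestive enzymes were abundant in both groups, though not all at similar levels. The enzyme gene alphaTry was at 23580 TPM in dHNF4 RNAi libraries and 24231 TPM in controls. Amy-p was lower in all dHNF4 RNAi libraries, at 8595 TPM against 18269 TPM in controls. Jon99Cii was lower in all of them too, at 9808 TPM against 16301 TPM in controls. After median-of-ratios scaling the log2 fold changes of alphaTry, Amy-p and Jon99Cii were -0.64, -1.70 and -1.27.

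Ribosomal protein mRNAs were among the most abundant of the midgut, and their order changed little between the groups. Apart from the like genes RpL7-like, RpL24-like and RpLP0-like and the minor copies RpL34a and RpS15Ab, the 79 core genes ranged from 816 to 7273 TPM in dHNF4 RNAi libraries (median 1963) and from 655 to 4850 TPM in controls (median 1593). RpL41, which encodes the shortest protein of the set with 25 residues, had the highest level in both groups and ranked 18 among all genes. By the mean over all 10 libraries the next were RpLP1, of the ribosomal stalk, at 4192 ± 123 TPM in dHNF4 RNAi libraries and 2986 ± 200.5 TPM in controls, and RpL39, of the peptide exit tunnel, at 3700 ± 279 TPM in dHNF4 RNAi libraries and 3262 ± 320 TPM in controls (SD, n = 5 each). RpS14b was lowest of the core, at 816 ± 21.0 TPM in dHNF4 RNAi libraries and 655 ± 21.0 TPM in controls. Across the 79 core genes, mean log2 levels in the groups correlated with a Pearson r of 0.919 and a Spearman rho of 0.915, a description across genes that share libraries; over all 84, with the low genes included, r was 0.986 and rho 0.929. The genes were also tight within a group, with a median coefficient of variation over the core of 3.06% in dHNF4 RNAi libraries and 6.15% in controls.

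**Figure D1:**
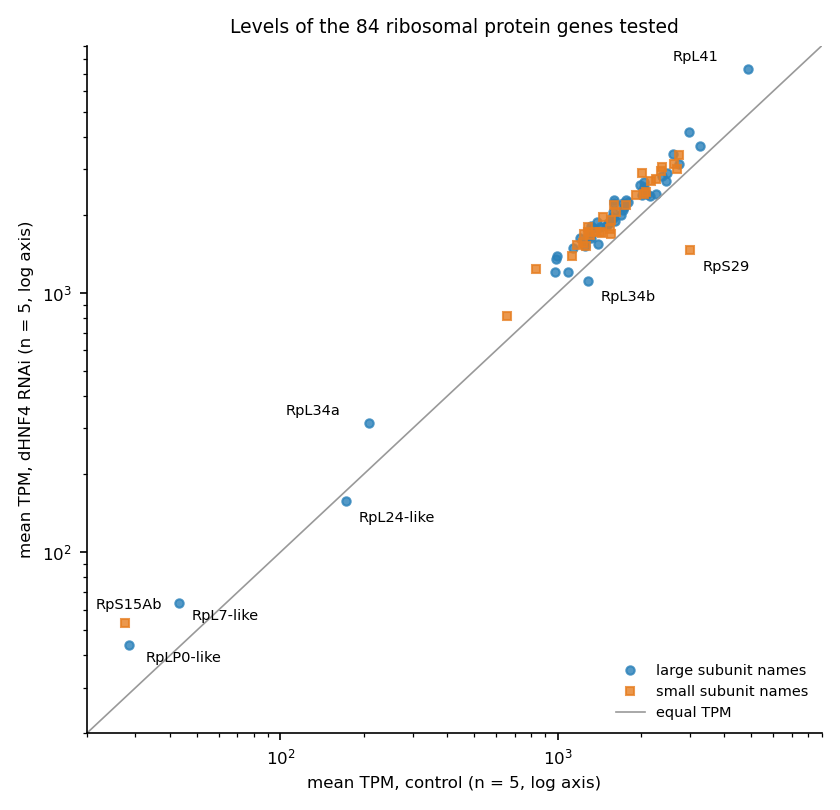
Mean TPM of each of the 84 tested ribosomal protein genes in dHNF4 RNAi libraries (vertical axis) against control libraries (horizontal axis), both on log axes, with circles for large-subunit and squares for small-subunit names. Most points form a band above the line of equal TPM, a position that turns to below it after median-of-ratios scaling, and RpS29 lies far under the band at 1468 TPM in dHNF4 RNAi libraries and 3016 TPM in controls.

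Together the 92 genes took a larger share of the dHNF4 RNAi libraries. Their summed level was 170917, 175855, 176064, 171702 and 167688 TPM in dHNF4 RNAi libraries 1 to 5, against 127218, 140246, 141828, 141971 and 150314 TPM in controls 1 to 5. The groups did not overlap, with means of 17.6% ± 0.391 of the library in dHNF4 RNAi and 14.4% ± 0.840 in controls (SD, n = 5 each), a ratio of 1.23. This direction depends on the scaling. The log2 ratio of the sums was 0.30 on the TPM scale, 0.16 when the 20 most abundant genes, RpL41 among them, were left out, and -0.31 after median-of-ratios scaling. Genes that mark other cells, of the gut and of other tissues, were read in the same libraries. Over all genes, 66.9% were called higher and 16.3% lower in TPM, and 35.6% and 35.8% after median-of-ratios scaling. All 11 stem cell and enteroblast markers tested, such as Sox100B and Dl, were higher under both scalings, summing to 196 to 223 TPM in dHNF4 RNAi libraries and 23.6 to 56.1 TPM in controls. Enteroendocrine markers summed to 610 to 685 TPM in dHNF4 RNAi libraries and 612 to 746 TPM in controls, with 4 of 9 higher and 4 lower in TPM and 1 higher and 5 lower after median-of-ratios scaling. Visceral muscle markers summed to 2485 to 2928 TPM in dHNF4 RNAi libraries and 2580 to 2994 TPM in controls, with 1 of 12 higher and 4 lower in TPM and 0 higher and 11 lower after median-of-ratios scaling. Fat body markers summed to 137 to 173 TPM in dHNF4 RNAi libraries and 243 to 375 TPM in controls, with all 4 tested lower and 5 of 11 under 1 TPM in every library; most of that sum was the gene to, at 146 ± 12.9 TPM in dHNF4 RNAi libraries and 302 ± 53.9 TPM in controls. Testis markers summed to 8.57 to 15.99 TPM in dHNF4 RNAi libraries and 8.92 to 11.6 TPM in controls, with 20 of 24 under 1 TPM in every library. Male accessory gland markers summed to 2.23 to 50.8 TPM in dHNF4 RNAi libraries and 0.948 to 4.51 TPM in controls. Of the 3 tested, 2 were higher in TPM and 1 after median-of-ratios scaling, and the groups overlapped in all 3. The part of these cells in the ribosomal protein levels was not tested.

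The large and the small subunit moved by nearly the same amount once RpS29 was set aside. Large-subunit mRNAs summed to 106006 ± 2041 TPM in dHNF4 RNAi libraries and 85128 ± 5163 TPM in controls, and small-subunit mRNAs to 66439 ± 1508 TPM in dHNF4 RNAi libraries and 55188 ± 3160 TPM in controls (SD, n = 5 each). The small-subunit part of the ribosomal protein total, which no scaling of a library can change, was 38.5% ± 0.0975 in dHNF4 RNAi libraries and 39.3% ± 0.151 in controls. The groups did not overlap, at 38.4 to 38.6% in dHNF4 RNAi libraries and 39.1 to 39.5% in controls. Without RpS29 the part was 38.0% ± 0.0909 in dHNF4 RNAi libraries and 38.0% ± 0.186 in controls, and the ranges overlapped. The median log2 fold change was 0.31 for the 51 large-subunit genes and 0.31 for the 33 small-subunit genes.

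Of the 84 genes tested on the TPM scale, limma called 77 higher and 2 lower in dHNF4 RNAi libraries at an adjusted p under 0.05, beside 66.9% higher and 16.3% lower, and 83.2% in either direction, over all 8784 genes tested. By subunit, 46 of 51 large and 31 of 33 small members were higher, and each subunit had 1 member lower. The 2 lower genes were RpS29 and RpL34b, and the 5 that passed in neither direction were RpL24-like, RpL35, RpL37A, RpL39 and RpS20. In 75 members all dHNF4 RNAi libraries lay above all controls, and in 2 members all lay below, beside 60.3% and 11.7% of all genes. The median log2 fold change of the members was 0.31, below the 0.55 of all tested genes. After median-of-ratios scaling most members turned, so that 1 member was higher and 68 were lower, beside 35.6% and 35.8% of all genes, with a members' median of -0.29 and an all-gene median of 0.01. Of the 77 genes higher in TPM, 61 were called lower on that scale. The members' median lay under that of all genes by 0.23 on the TPM scale and by 0.30 after median-of-ratios scaling, but it lay 0.07 above after quantile normalization and 0.09 above when genes of low level were kept, and under by only 0.08 with a pseudocount of 5.

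**Figure D2:**
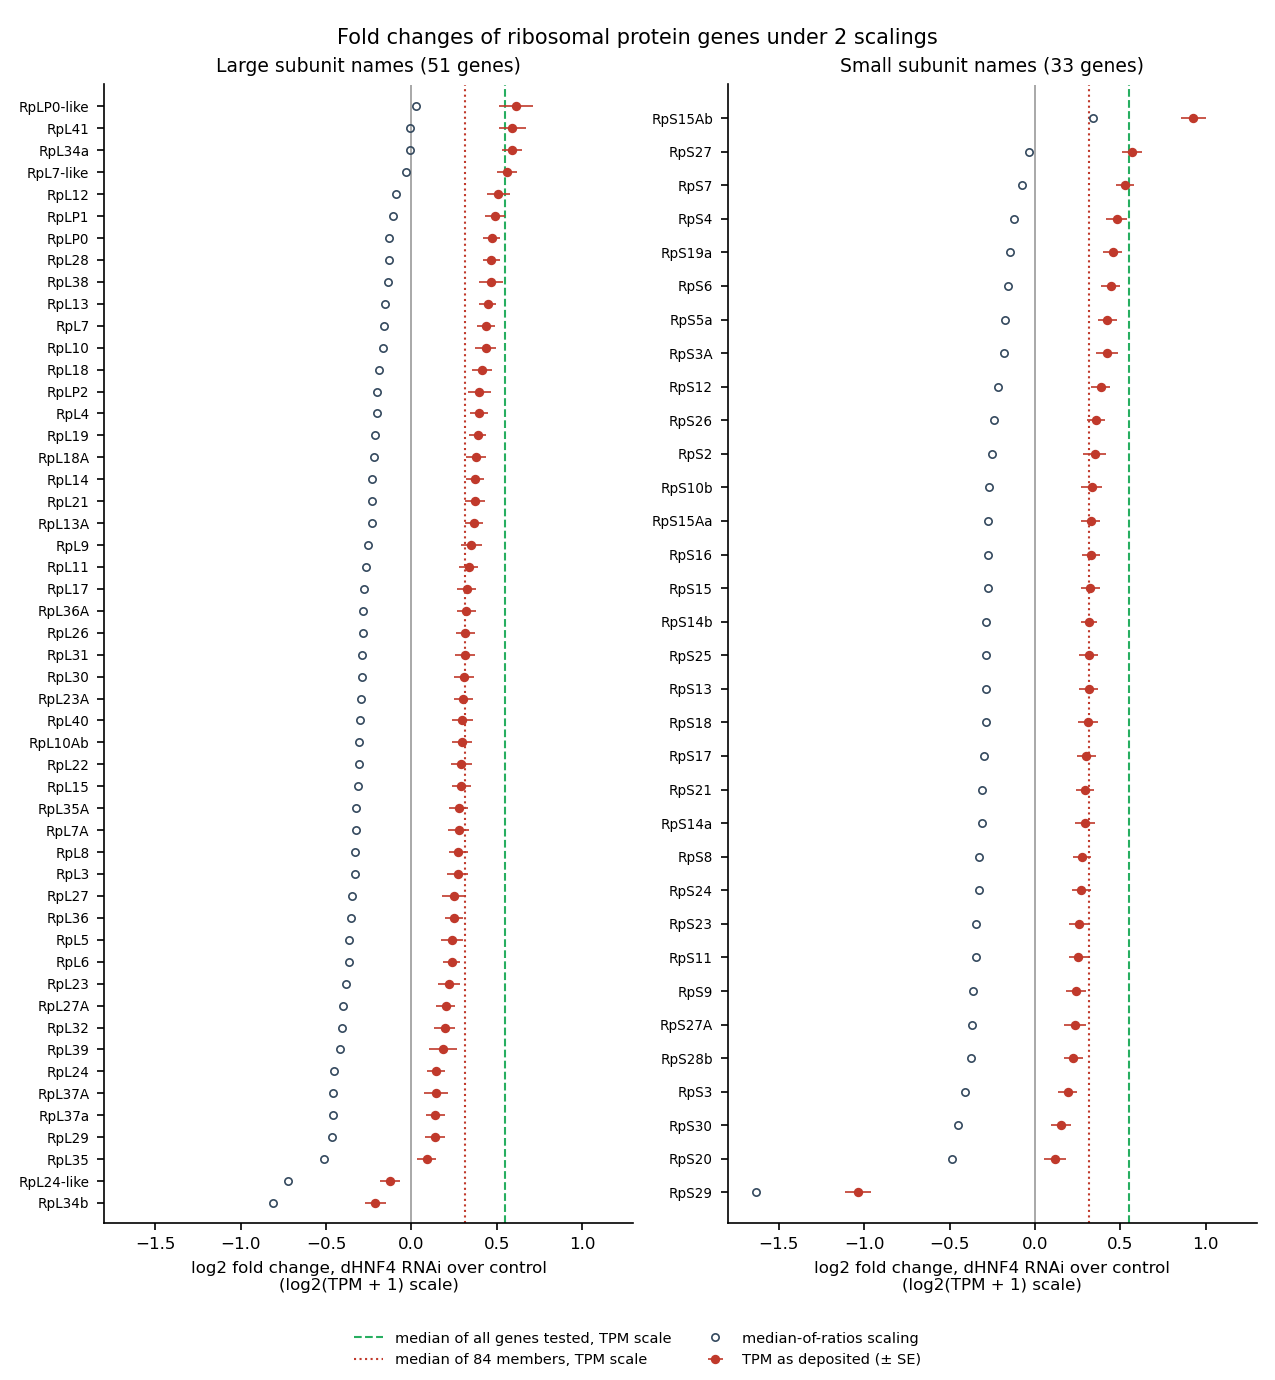
Log2 fold change of each tested ribosomal protein gene, dHNF4 RNAi over control, for 51 large-subunit (left) and 33 small-subunit names (right). Filled points with SE bars are TPM as deposited, and open points follow median-of-ratios scaling. The dotted line is the members' median of 0.31 and the dashed line the all-gene median of 0.55, both on the TPM scale. Most genes change sign between the scalings. RpS29, RpL34b and RpL24-like are below 0 on both, and RpS15Ab and RpLP0-like (0.03 after median-of-ratios scaling) are above 0 on both.

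RpS29 stood apart from every other member. It encodes a small zinc-binding protein of the head of the small subunit, 56 residues long, and lies on chromosome 3R at 9778042 to 9779528 on the plus strand (FBgn0261599, annotation BDGP6.54). It has up to 3 exons per transcript and 1 snoRNA gene within its span. Its level was 1335, 1525, 1474, 1569 and 1436 TPM in dHNF4 RNAi libraries 1 to 5, against 2589, 3008, 2968, 3228 and 3285 TPM in controls 1 to 5. Every dHNF4 RNAi library was therefore far below every control, whereas most members were above them. The log2 fold change was -1.04 (SE 0.075, limma adjusted p = 2.23e-07), and -1.64 after median-of-ratios scaling. RpS29 was at place 71 in level among the 84 genes in dHNF4 RNAi libraries and at place 3 in controls. It made up 0.851% ± 0.0483 of ribosomal protein TPM in dHNF4 RNAi libraries and 2.15% ± 0.0907 in controls (SD, n = 5 each). Leaving out any 1 library gave log2 fold changes of -1.089 to -1.002. An annotated antisense RNA on the minus strand, asRNA:CR31514, overlaps the 3′ end of RpS29. This antisense RNA has no values of its own in the deposited expression table, so its level could not be analysed. Whether any of its reads were counted to RpS29 is not known.

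RpL34b, 1 of a pair of genes for the large-subunit protein RpL34, was the other gene called lower. It measured 1045, 1174, 1179, 1103 and 1080 TPM in dHNF4 RNAi libraries 1 to 5, against 1208, 1244, 1409, 1245 and 1356 TPM in controls 1 to 5. The groups did not overlap, although the highest dHNF4 RNAi library came close to the lowest control. Its log2 fold change was -0.21 (SE 0.062, limma adjusted p = 0.0079), and -0.81 after median-of-ratios scaling.

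**Figure D3:**
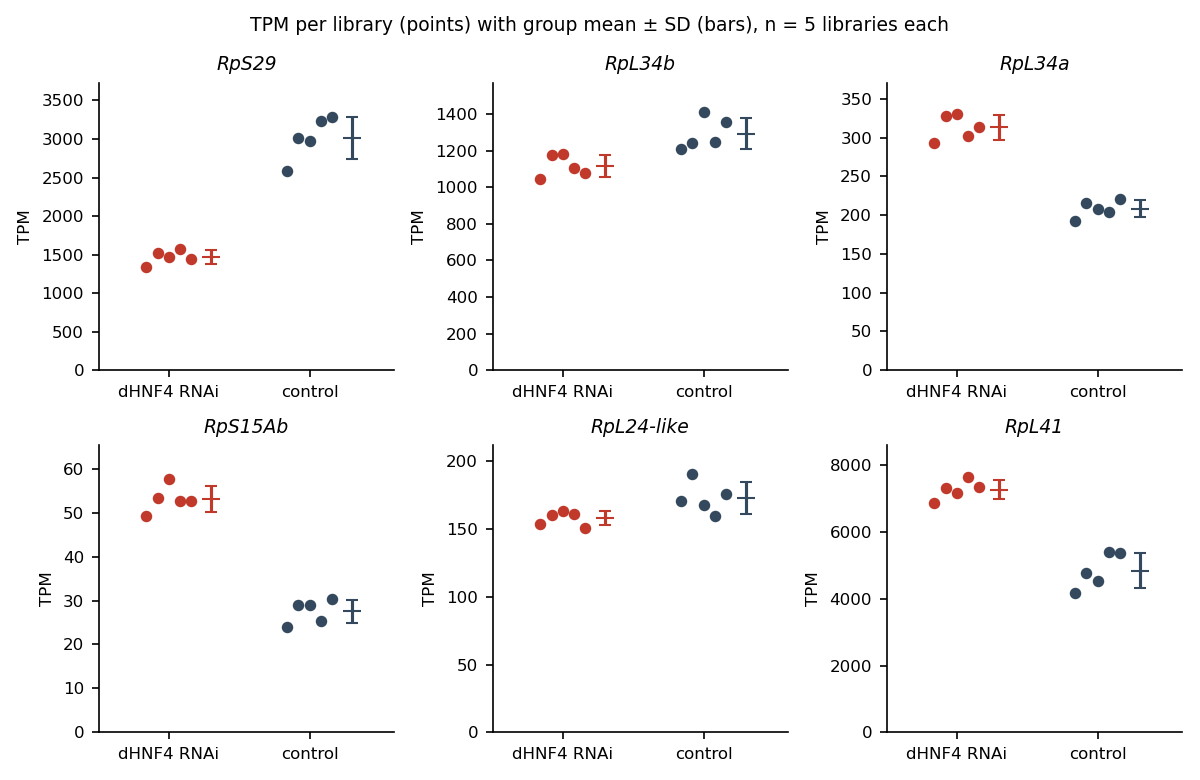
TPM in each library (points) with the group mean and SD (bars) for 6 members, dHNF4 RNAi at the left of each panel and control at the right. RpS29 and RpL34b were lower in all dHNF4 RNAi libraries, RpL34a, RpS15Ab and RpL41 were higher in all of them on the TPM scale (RpL34a and RpL41 at -0.01 after median-of-ratios scaling), and the groups of RpL24-like overlapped.

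Within the large subunit, genes were grouped by the place of their protein in the ribosome. The stalk, which recruits and activates the GTPases of translation, is formed by RpLP0, RpLP1 and RpLP2 on the base protein RpL12. All 4 stalk genes were higher in TPM, beside 66.9% of all genes, with a median log2 fold change of 0.48. After median-of-ratios scaling 1 was lower, beside 35.8% of all genes, and 3 were not called. RpLP0 measured 1425, 1416, 1395, 1321 and 1365 TPM in dHNF4 RNAi libraries and 927, 1008, 1026, 990 and 1046 TPM in controls, without overlap. The log2 fold changes on the TPM scale were 0.47 for RpLP0, 0.49 for RpLP1, 0.40 for RpLP2 and 0.51 for RpL12. RpL5 and RpL11, which bind the 5S rRNA, rose less on that scale, by 0.24 (adjusted p = 0.00412) and 0.33 (adjusted p = 0.000129) in the limma fit, and both were called lower after median-of-ratios scaling, at -0.36 and -0.27.

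Of 8 genes for proteins at the exit tunnel and its rim, 6 were higher in TPM, beside 66.9% of all genes. All 8 were lower after median-of-ratios scaling, beside 35.8% of all genes. The exceptions on the TPM scale were RpL39, which lines the tunnel, and RpL35, at its rim. RpL39 measured 3672, 3674, 4082, 3771 and 3300 TPM in dHNF4 RNAi libraries and 2710, 3460, 3287, 3353 and 3498 TPM in controls. The groups overlapped, and the log2 fold change was 0.18 (limma adjusted p = 0.0566). It passed without dHNF4 RNAi replicate 5 (0.22, adjusted p = 0.0301) or without control replicate 5 (0.21, adjusted p = 0.0438). RpL35 measured 2384, 2446, 2548, 2321 and 2317 TPM in dHNF4 RNAi libraries and 2090, 2235, 2223, 2334 and 2410 TPM in controls, again with overlap (0.09, limma adjusted p = 0.154). Among the largest differences in the subunit was RpL41, at 6883, 7327, 7166, 7648 and 7342 TPM in dHNF4 RNAi libraries and 4180, 4766, 4529, 5391 and 5383 TPM in controls. All its dHNF4 RNAi libraries were higher, with a log2 fold change of 0.59 (SE 0.078, limma adjusted p = 2.22e-05) on the TPM scale and -0.01 (adjusted p = 0.919) after median-of-ratios scaling.

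In the small subunit, 11 of the 13 genes for proteins of the head were higher in TPM, RpS29 was lower and RpS20 was not called (log2 fold change 0.11, limma adjusted p = 0.12). Over all genes, 66.9% were called higher in TPM. On the median-of-ratios scale 12 of the 13 head genes were called lower and 0 higher, beside 35.8% and 35.6% of all genes. RpS12, a head protein through which fly cells with reduced ribosomal protein gene dosage are recognised, was at 1502, 1568, 1484, 1553 and 1535 TPM in dHNF4 RNAi libraries and 1064, 1148, 1180, 1197 and 1267 TPM in controls. Its log2 fold change was 0.39 (limma adjusted p = 4.85e-05) in TPM and -0.22 (adjusted p = 0.0153) after median-of-ratios scaling. RpS6, the substrate of the growth-regulated S6 kinase, likewise changed sign, at 0.44 in TPM and -0.16 after scaling. The largest increases of this subunit in TPM, RpS15Ab aside, were in RpS27 (0.57) and RpS7 (0.52), and neither passed after median-of-ratios scaling (-0.03 and -0.08). Another 3 genes carry ubiquitin or a ubiquitin-like domain ahead of the ribosomal protein, a fusion that is cut apart after translation. These genes, RpL40, RpS27A and RpS30, had log2 fold changes of 0.30, 0.23 and 0.15 in TPM, all called higher, and of -0.30, -0.37 and -0.45 after median-of-ratios scaling, all called lower. On the TPM scale RpS30 no longer passed without dHNF4 RNAi replicate 2, 3 or 4 (limma adjusted p = 0.0624 to 0.0665).

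A division of each library by its own ribosomal protein total asks which members changed relative to the others, and was added after the data had been seen. On this scale limma called 22 members higher and 13 lower, beside 53.5% and 23.5% of all genes. RpS29 had the lowest value at -1.33 (adjusted p = 5.2e-09), followed by RpL34b at -0.51 and RpL24-like at -0.42. RpL35 (-0.21, adjusted p = 0.000412), RpS20 (-0.18), RpL29 (-0.16) and RpL37a (-0.16) were also lower relative to the set. RpS15Ab was highest at 0.63 (adjusted p = 2.72e-06), and RpL34a and RpL41 were each at 0.29. RpL12, RpLP1 and RpLP0 of the stalk were higher than the set by 0.21, 0.19 and 0.17, and the fourth, RpLP2, did not pass (0.10, adjusted p = 0.108). Relative to the set, 49 members passed in neither direction, and the median member was at 0.02. This scaling holds the members' total equal in all libraries, so a median near 0 largely follows from it. The counts of 22 and 13 therefore cannot show a shift of the whole set.

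Genes with a second copy were compared by the share of the second copy in the summed TPM of the pair, which does not depend on how a library is scaled. The table holds 10 such pairs. In the pairs of RpL22 and RpL37a the second copies, RpL22-like, known from the male germ line, and RpL37b, were listed at 0 in all 10 libraries, so 8 pairs were tested.

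RpL34a, on chromosome 3R at 26058420 to 26059267 on the minus strand (FBgn0039406, BDGP6.54), encodes 162 residues, against 168 for RpL34b at 9400237 to 9401226 on the same chromosome and strand (FBgn0037686). RpL34a measured 293, 328, 330.0, 302 and 314 TPM in dHNF4 RNAi libraries and 192, 216, 208, 204 and 220.4 TPM in controls. All dHNF4 RNAi values were higher, opposite to RpL34b (log2 fold change 0.59, SE 0.057, limma adjusted p = 1.85e-06), although on the median-of-ratios scale RpL34a was at -0.01. RpL34a was 21.9% ± 0.372 of the pair in dHNF4 RNAi libraries and 13.9% ± 0.686 in controls (SD, n = 5 each), a difference of 8.04 percentage points, higher in 5 of 5 libraries. The exact two-sided permutation test gave p = 0.00794, the smallest that 5 against 5 libraries allow, and 0.0317 after Benjamini-Hochberg adjustment over the 8 pairs. The pair as a whole summed to 1430 ± 74.2 TPM in dHNF4 RNAi libraries and 1501 ± 91.9 TPM in controls, with overlapping ranges. Any reads that fit both RpL34a and RpL34b are divided between them by estimation, and their part in these shares was not tested.

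RpS15Ab lies on chromosome 2R at 10821676 to 10822399 on the plus strand (FBgn0033555, BDGP6.54) as a gene of 1 exon, whereas RpS15Aa on the X has up to 3, and each encodes 130 residues of the same small-subunit protein. RpS15Ab measured 49.3, 53.3, 57.7, 52.6 and 52.6 TPM in dHNF4 RNAi libraries and 24.1, 28.9, 29.0, 25.4 and 30.4 TPM in controls. The groups were far apart, and the log2 fold change of 0.93 (SE 0.073, limma adjusted p = 3.98e-07) was the largest of all members. It was also the only member called higher after median-of-ratios scaling (0.34, limma adjusted p = 0.00137). Its share of the pair was 2.99% ± 0.146 in dHNF4 RNAi libraries and 1.96% ± 0.150 in controls (SD, n = 5 each; exact two-sided permutation test, p = 0.00794, adjusted 0.0317), higher in 5 of 5 libraries. Reads that fit both copies are divided between them by estimation, so the small share of RpS15Ab is uncertain. With any 1 library left out the adjusted p of this pair and of the RpL34 pair was 0.0556 to 0.0635 in the exact test, because fewer libraries allow fewer assignments.

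**Figure D4:**
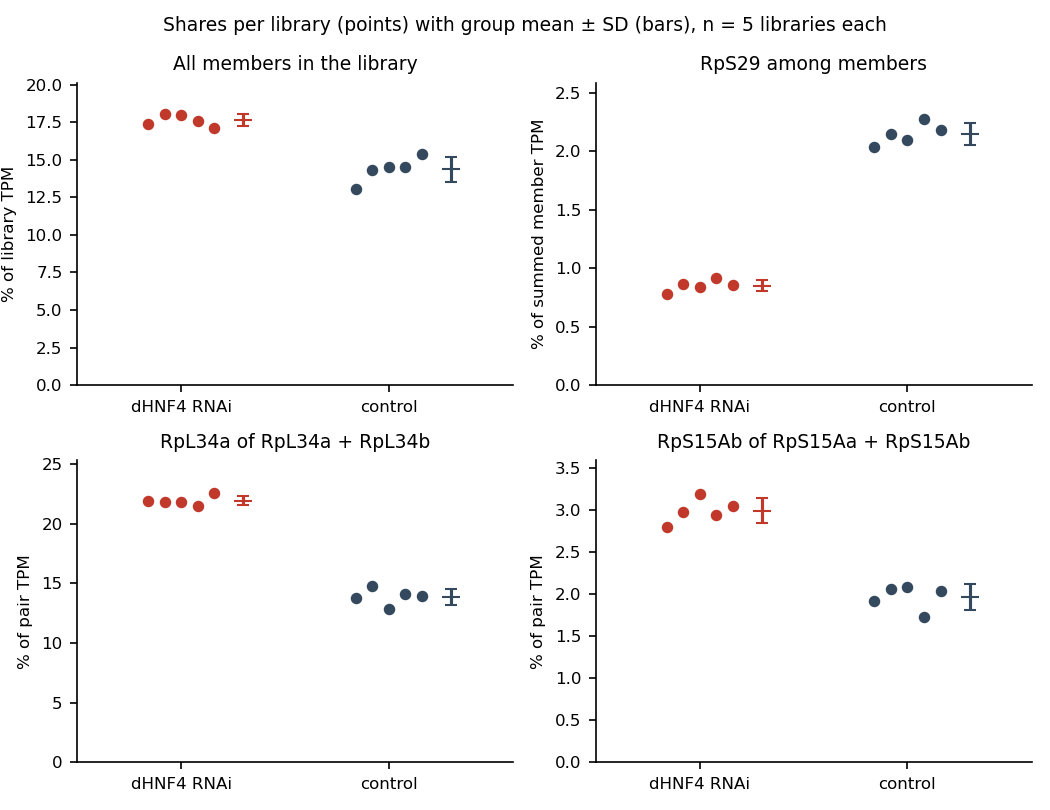
Shares in each library (points) with the group mean and SD (bars), dHNF4 RNAi at the left of each panel and control at the right: all members in library TPM, RpS29 in ribosomal protein TPM, RpL34a in its pair and RpS15Ab in its pair. The groups do not overlap in any panel; the library share reverses to lower in dHNF4 RNAi after median-of-ratios scaling, and the other 3 are ratios that scaling leaves as they are.

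The neighbouring X-linked genes RpS14a and RpS14b each encode 151 residues and split their pair in similar proportions in the groups. RpS14a was 62.9% ± 1.37 of the pair in dHNF4 RNAi libraries and 63.3% ± 0.937 in controls (SD, n = 5 each; exact two-sided permutation test, p = 0.603, adjusted 0.804). These copies are alike in sequence too, and their division is likewise uncertain. In the other 5 tested pairs the second copy was barely present in the midgut of either group. RpS5b, known from the ovary, was 0.0275% of its pair in dHNF4 RNAi libraries and 0.0312% in controls, at no more than 0.896 TPM in any library. RpS19b, known from the germ line, was 0.0041% of its pair in dHNF4 RNAi libraries and 0.0099% in controls (exact two-sided permutation test, p = 0.0794, adjusted 0.212). RpS10a was 0.0033% in dHNF4 RNAi libraries and 0.0097% in controls, and RpS28a was listed at 0 in every dHNF4 RNAi library and averaged 0.0098% in controls. RpL10Aa had a value above 0 in only 1 library, dHNF4 RNAi replicate 3, at 0.0779 TPM. RpS28-like was above 0 in 1 dHNF4 RNAi library and 2 controls, at 0.546 TPM or less.

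A further 3 genes that match the naming rule encode relatives of ribosomal proteins which in yeast act in building the large subunit and are not part of the finished ribosome. RpL24-like, the counterpart of yeast Rlp24, measured 153, 160.4, 163, 161 and 151 TPM in dHNF4 RNAi libraries and 170.3, 190.3, 167, 159 and 176 TPM in controls. The groups overlapped by 3 dHNF4 RNAi libraries above the lowest control, and the log2 fold change was -0.13 (SE 0.057, limma adjusted p = 0.0585). Without control replicate 4 it was -0.16 and passed (limma adjusted p = 0.0318). After median-of-ratios scaling it was -0.72 (adjusted p = 4.92e-07). The other two were higher in TPM in all dHNF4 RNAi libraries and near 0 after that scaling. RpL7-like, the counterpart of Rlp7, was at 0.56 (limma adjusted p = 3.08e-06) and -0.03, and RpLP0-like, the counterpart of Mrt4, at 0.61 (limma adjusted p = 0.000114) and 0.03. RpL7-like was at 63.7 ± 1.89 TPM in dHNF4 RNAi libraries and 43.0 ± 3.09 TPM in controls, and RpLP0-like at 43.8 ± 2.70 TPM in dHNF4 RNAi libraries and 28.5 ± 4.67 TPM in controls (SD, n = 5 each), all far under the core.

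The authors' deposited table of fold changes lists 85 of the 92 members, and its centre differs from both scalings. Its normalization is not stated in the sources used here, although RUVSeq, a tool that removes unwanted variation, is named with it. In the authors' deposited table a positive log2 fold change is given for 28 members and a negative one for 57, with a median of -0.03, where all 10494 listed genes have a median of 0.13. After Benjamini-Hochberg adjustment of its p-values, computed here, RpS29 was the single member of the authors' deposited table under 0.05 (log2 fold change -1.33, adjusted p = 4e-06), beside 15% of all listed genes higher and 13.7% lower. RpS15Ab had the highest value among members in the authors' deposited table, at 0.62 with an unadjusted p of 0.0245 (0.0743 adjusted). RpL34b and RpL24-like were at -0.44 and -0.42 in the authors' deposited table, with unadjusted p-values of 0.0828 and 0.0716.

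Other genes of translation were read beside the members. The ribosomal proteins with other names, sta and Rack1, moved like the members, at 0.26 and 0.38 in TPM and -0.34 and -0.22 after median-of-ratios scaling, all called by limma. All 73 mitochondrial ribosomal protein genes were higher in TPM, beside 66.9% of all genes, with a median log2 fold change of 1.00. After median-of-ratios scaling 65 were higher and 3 lower, beside 35.6% and 35.8% of all genes. They summed to 3096 ± 139 TPM in dHNF4 RNAi libraries and 1534 ± 71.3 TPM in controls (SD, n = 5 each).

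Of 26 initiation factor genes, all were higher in TPM with a median of 0.64, beside 66.9% of all genes. After median-of-ratios scaling 10 were higher and 4 lower, beside 35.6% and 35.8% of all genes. eIF1, a start-codon selection factor, was at 357 ± 10.4 TPM in dHNF4 RNAi libraries and 179 ± 12.8 TPM in controls (0.998 on the log2 scale). Its log2 fold change was 0.40 after median-of-ratios scaling. Of 7 elongation factor genes, 4 were higher and 2 lower in TPM, beside 66.9% and 16.3% of all genes, and 1 was higher and 3 lower after median-of-ratios scaling. eEF2, the translocase, was at 0.60 in TPM and 0.00 after median-of-ratios scaling, whereas eEF1alpha1, the main carrier of aminoacyl-tRNA, was lower on both (-0.19, limma adjusted p = 0.0189, and -0.79). Of 16 ribosome assembly genes, 15 were higher in TPM with a median of 0.99, and 10 were higher and 3 lower after median-of-ratios scaling, beside the same shares of all genes. eIF6, which keeps immature large subunits from joining small ones, was at 79.4 ± 4.66 TPM in dHNF4 RNAi libraries and 34.1 ± 4.74 TPM in controls (SD, n = 5 each), a log2 fold change of 1.20 in TPM and 0.62 after scaling. Of the 3 partners Nacalpha, bic and Tctp, the nascent-chain factors Nacalpha and bic were higher in TPM, by 0.75 and 0.63, beside 66.9% of all genes. Tctp was at 0.00 in TPM and not called. After median-of-ratios scaling Nacalpha was higher (0.15, limma adjusted p = 0.0159) and bic was not called (0.03). Tctp was lower on that scale (-0.60, limma adjusted p = 1.05e-05), beside 35.6% of all genes higher and 35.8% lower.

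Of 13 genes listed here for roles in the control of ribosome production, translation or growth, 8 were higher and 2 lower in TPM. These shares were near the 66.9% and 16.3% of all genes. After median-of-ratios scaling 4 were higher and 5 lower, beside 35.6% and 35.8% of all genes. Thor, the 4E-BP that restrains cap-dependent initiation, was at 658 ± 139 TPM in dHNF4 RNAi libraries and 1293 ± 69.0 TPM in controls (-0.996, limma adjusted p = 1.17e-05). Xrp1, a transcription factor that acts in fly cells with reduced ribosomal protein gene dosage, was at 610 ± 31.2 TPM in dHNF4 RNAi libraries and 749 ± 60.8 TPM in controls (-0.30, limma adjusted p = 0.00157), and its partner Irbp18 was higher (1.37). Trf2, which in flies serves the promoters of ribosomal protein genes, was at 13.5 ± 1.67 TPM in dHNF4 RNAi libraries and 5.23 ± 0.900 TPM in controls (1.22). Myc, an activator of growth genes, was at 0.79 in TPM and did not pass after median-of-ratios scaling (0.22, limma adjusted p = 0.138). For Thor, Xrp1, Irbp18 and Trf2 the direction was the same on both scalings.

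**Figure D5:**
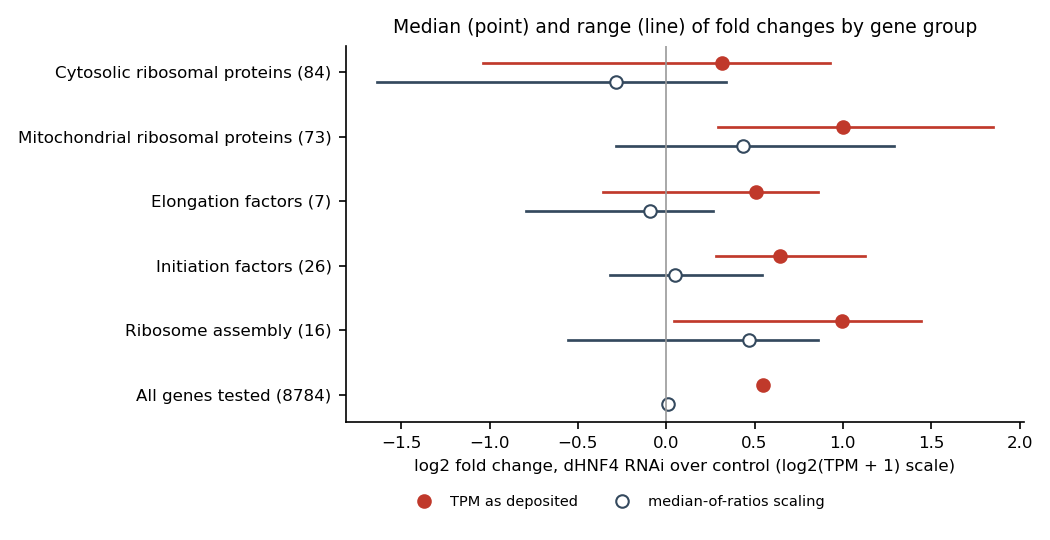
Median (points) and range (lines) of log2 fold changes, dHNF4 RNAi over control, for gene groups of translation, with filled points for TPM as deposited and open points for median-of-ratios scaling, and the medians alone for all genes. Cytosolic ribosomal protein genes have medians of 0.31 in TPM and -0.29 after median-of-ratios scaling, and mitochondrial ribosomal protein genes have medians above 0 on both.

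The 92 genes are spread over the chromosomes, with 23 on 3R, 21 on 2R, 19 on 2L, 14 each on 3L and X, and 1, RpS3A, on chromosome 4. The median log2 fold change in TPM was 0.32 on 2L, 0.33 on 2R, 0.34 on 3L, 0.26 on 3R and 0.30 on X. Fly ribosomal protein genes often carry snoRNA genes in their introns, and 28 tested members hold 74 of them. The 28 hosts and the other 56 tested members had medians of 0.31 and 0.31 in TPM and -0.29 and -0.29 after median-of-ratios scaling. Across the 84 tested genes, mean TPM and protein length had a Spearman rho of -0.40, and fold change and protein length a Pearson r of 0.20, both descriptions across genes measured in the same libraries.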

How the data were processed

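Groups and replicate numbers came from the sample labels. The authors deposited a table of TPM for all genes and, separately, their own comparison with log2 fold changes and p-values that carry no adjustment. edgeR, kallisto, Trim Galore and FastQC are named, without versions, with build BDGP6 per the submitters' processing notes; their part in each table is not stated. TPM keeps no depth, so the depth is unknown and no counting interval was computed. Libraries summed to 975327 to 982443 TPM.

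TPM were analysed as log2(TPM + 1), a scale that understates changes of low genes, for the 8784 genes averaging 1 TPM or more. limma 3.58.1 in R 4.3.3 (two-sided moderated test with trend, no covariate) compared the groups, with Benjamini-Hochberg adjustment over those genes and a threshold of 0.05. P-values measure the spread between pooled libraries. The test was checked on simulated data. Coordinates came from the Ensembl 115 annotation, assembly BDGP6.54, which matched 92 of 92 members.

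Members, lists and tests were chosen with earlier results of these data known. Named genes were all copies of pairs, the like genes, the 4 largest and 4 smallest fold changes, the 4 highest levels and up to 3 called genes per list. The grouping by role, and RpL5, RpL11, RpLP0, RpLP2, RpL40, RpS6, RpS12, RpS27A and RpS30, were added after values were seen, as were Thor, Myc, Xrp1, Tctp, eEF2, eEF1alpha1 and RpL37A. Replicate numbers did not pair the libraries across groups. The alternatives changed the pseudocount, the filter, the scaling, the trend, the replicate block and the set of libraries.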

Additional observations from a re-analysis of the deposited data

Results flagged for a closer look

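Of 88 groups of 5 libraries checked, 2 had 1 library far from the others, where chance alone flags about 1 in 20. RpL39 in control replicate 1 was at 2710 TPM, below the 3287 to 3498 TPM of the other controls, and this library also had the lowest ribosomal protein total of its group. Without it the log2 fold change of RpL39 was 0.12. The share of RpL10Aa in its pair was 0.0040% in dHNF4 RNAi replicate 3 and 0 in the other libraries of that group.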

How the results depend on the processing

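Scaling decided the direction of most members, and no other choice reversed a call. After median-of-ratios scaling the count of members higher was 1 and lower 68, the median -0.29 and the log2 ratio of the sums -0.31. Named members below 0 there but above 0 in TPM were RpL35 -0.51, RpS20 -0.49, RpL29 -0.46, RpL37a -0.46, RpS30 -0.45, RpL39 -0.42, RpS28b -0.38, RpS27A -0.37, RpL5 -0.36, RpS14a -0.31, RpL22 -0.31, RpL10Ab -0.31, RpL40 -0.30, RpS25 -0.29, RpS14b -0.28, RpS15Aa -0.27, RpS10b -0.27, RpL11 -0.27, RpS12 -0.22, RpLP2 -0.20, RpS5a -0.18, RpS6 -0.16, RpS19a -0.15, RpLP0 -0.13, RpLP1 -0.11, RpL12 -0.091, RpS7 -0.077, RpS27 -0.035, RpL7-like -0.031, RpL41 -0.011 and RpL34a -0.010. Scaled to the ribosomal protein total, chosen after seeing the data, 22 were higher and 13 lower with a median of 0.015, and the signs of RpL35 -0.21, RpS20 -0.18, RpL29 -0.16, RpL37a -0.16, RpS30 -0.15, RpL39 -0.11, RpS28b -0.074, RpS27A -0.065, RpL5 -0.061, RpS14a -0.0069, RpL22 -0.0058, RpL10Ab -0.0037 and RpL40 -0.00018 turned. Without the 20 most abundant genes, which include RpL41, 83 members were tested. Their median was then 0.18 and the ratio of sums 0.16, with RpL35 at -0.041 and RpS20 at -0.017. Quantile normalization gave a median of 0.19, with RpS20 at -0.049, RpL35 at -0.020 and RpL29 at -0.00036. The cause was not tested beyond the scaling itself. Under pseudocounts of 0.1 and 5 and the 5 TPM filter 77 members remained higher and 2 were lower. With each library left out in turn, 73 to 79 were higher and 2 to 3 lower, the median was 0.28 to 0.34 and the ratio of sums 0.26 to 0.32. Left out in the same way, the share differences in percentage points were 7.79 to 8.26 for RpL34a, 0.966 to 1.08 for RpS15Ab, -0.75 to 0.011 for RpS14a and -0.0092 to 0.0044 for RpS5b, and RpL34a and RpS15Ab no longer passed (exact permutation test, adjusted p of 0.0556 to 0.0635), since fewer libraries allow fewer assignments. The increases of RpL29, RpL37a and RpS30 lay near the threshold and were lost with no filter and in most or several fits without 1 library. With the replicate number as a block, 74 members were higher and 2 lower; deviations of same-numbered libraries correlated at -0.33 to 0.36, and 1 of 5 matched its own number best. Depth is unknown and limits the near-absent copies most.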
